A study of Mus musculus with 24 samples.

Results

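The genes described are the axon guidance ligands and receptors of the mouse spinal cord: semaphorins of classes 3 to 7, plexins, neuropilins, ephrins, Eph receptors, Slits, Robos, netrins, Dcc and the Unc5 receptors. They were chosen by symbol from the platform annotation, and of the probe sets annotated with a gene's symbol alone, the brightest on average was used. The rule found 69 genes, measured by 133 probe sets, among 17097 genes in all. Of these, Plxna4os1, Unc50 and Unc5cl match by their letters only and are no guidance molecules, which leaves 33 ligands and 33 receptors. Efna3, Ephb2 and Slit3 have no probe set with a single symbol and were not analysed here.

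Guidance molecules steer growing axons by attraction or repulsion during development, and many persist in the adult spinal cord, where they act at synapses, on glia and on blood vessels. Secreted class 3 semaphorins bind neuropilins, which signal through A-type plexins, whereas the membrane-bound semaphorins bind plexins directly. Ephrins on one cell activate Eph receptor kinases on its neighbour, Slits act through Robos, and netrins attract through Dcc and repel through Unc5 receptors. Several semaphorins and plexins are also found on T cells, B cells and myeloid cells, where they take part in costimulation and migration.

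Expression was measured in 24 spinal cord samples from female mice aged 8 to 12 weeks, on 1 Affymetrix array each. Naive wild-type mice, wild-type recipients of MOG-reactive Th1 cells, wild-type recipients of MOG-reactive Th17 cells and naive mice labelled Act1 KO were represented by 5 arrays each, and recipients of Th17 cells labelled Act1 KO by 4. Recipients were irradiated with 500 rad before the transfer and killed 12 days after it, and naive mice were untreated, so irradiation, transfer and disease cannot be told apart in a comparison with naive mice. The transferred cells came from immunized donors and were cultured with MOG peptide and IL-12 plus an antibody to IL-23 (Th1) or with IL-23 (Th17), and the disease that they cause, experimental autoimmune encephalomyelitis (EAE), is a model of multiple sclerosis. By the labels the recipients had just developed symptoms, whereas the paper speaks of the peak of disease. Act1, encoded by Traf3ip2, is the adaptor of the IL-17 receptor. The Traf3ip2 probe set did not fall in the mice labelled Act1 KO: its log2 level was 4.29 ± 0.20 in naive wild-type mice and 5.56 ± 0.24 in their counterparts labelled Act1 KO (SD, 5 mice each), and where the allele lies relative to the probes is not given in the sources used here. The genotype is therefore given as labelled.

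The values are log2 expression values from RMA, with array medians between 3.46 and 3.57. A level near the array median is close to background, which was the case for 20 members whose naive wild-type mean lay under 3.46. A difference from such a level, of these or of other genes, can understate the change. Differences were fitted with limma over all 24 arrays and all 17097 genes, and the adjusted p of a called gene is under 0.05. The leading principal component took up 82.8% of the variance over all genes and separated the wild-type recipients from all other arrays. Th1 recipients 4 and 5 lay at 55.01 and 55.92 on it, below the other Th1 recipients (67.8 to 68.5). Calls between Th17 and Th1 recipients are given without them below. In Th1 recipients against naive wild-type mice, 43 members were called with them. Without them, 41 were called, of which 39 were among the 43.

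Promoter sequences are shown for members with large changes in Th17 recipients, to set the CpG content of genes that rose beside that of genes that fell. They are the 250 bases before the transcription start that RefSeq lists (GRCm38.p6), and 58 of the 69 members have such a window. The first set holds Plxnd1, which had the largest increase of the members, Unc5b, which had the largest decrease, and Sema3a, which was lower in Th17 than in Th1 recipients. Capitals mark CpG pairs.
Plxnd1, chr6:115995006-115995255, minus strand: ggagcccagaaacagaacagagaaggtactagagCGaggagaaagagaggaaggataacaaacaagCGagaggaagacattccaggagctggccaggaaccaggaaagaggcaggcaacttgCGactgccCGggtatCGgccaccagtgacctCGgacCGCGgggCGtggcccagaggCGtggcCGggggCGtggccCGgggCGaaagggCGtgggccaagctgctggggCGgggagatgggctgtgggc
Unc5b, chr10:60831582-60831831, minus strand: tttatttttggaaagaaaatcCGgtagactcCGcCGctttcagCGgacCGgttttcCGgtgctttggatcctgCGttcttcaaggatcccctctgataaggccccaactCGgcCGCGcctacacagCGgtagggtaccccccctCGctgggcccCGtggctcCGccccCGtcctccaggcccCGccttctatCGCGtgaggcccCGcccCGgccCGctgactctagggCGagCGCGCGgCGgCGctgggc
Sema3a, chr5:13396534-13396783, plus strand: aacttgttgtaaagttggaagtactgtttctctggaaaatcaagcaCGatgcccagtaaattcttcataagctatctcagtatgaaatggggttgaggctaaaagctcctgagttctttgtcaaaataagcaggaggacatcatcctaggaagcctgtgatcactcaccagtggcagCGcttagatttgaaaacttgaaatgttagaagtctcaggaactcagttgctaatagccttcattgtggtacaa
Plxnd1 holds 16 CpG pairs, Unc5b 27 and Sema3a 2. The median was 15 over the 73 windows of the members (58 genes) and 6 over all 32851 windows. It was 12 over the 16 windows of members called higher in Th17 recipients (9 genes). Over the 25 windows of members called lower (23 genes) it was 20, and over the 32 of members not called (26 genes) 12.5. Of the 16 windows, 4 are of Sema4a (2 to 13 CpG pairs) and 3 of Sema4d (1 to 2), so these are medians of windows and not of genes.

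The second set holds 1 of the 4 listed windows of Sema4a and 1 of the 3 of Sema4d. These are the windows of called semaphorins that rose in which an NF-kB or AP-1 match was found. Capitals mark an NF-kB consensus in Sema4a, 173 to 164 bases before the start. In Sema4d they mark a match to the AP-1 pattern searched for (TGANTCA), 239 to 233 bases before the start. This pattern is a loose one that allows any middle base, which is A here.
Sema4a, chr3:88459102-88459351, minus strand: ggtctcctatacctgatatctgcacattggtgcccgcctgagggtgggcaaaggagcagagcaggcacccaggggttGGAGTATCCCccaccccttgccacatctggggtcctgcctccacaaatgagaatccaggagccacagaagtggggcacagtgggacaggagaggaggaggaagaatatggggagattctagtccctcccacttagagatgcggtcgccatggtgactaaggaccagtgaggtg
Sema4d, chr13:51748811-51749060, minus strand: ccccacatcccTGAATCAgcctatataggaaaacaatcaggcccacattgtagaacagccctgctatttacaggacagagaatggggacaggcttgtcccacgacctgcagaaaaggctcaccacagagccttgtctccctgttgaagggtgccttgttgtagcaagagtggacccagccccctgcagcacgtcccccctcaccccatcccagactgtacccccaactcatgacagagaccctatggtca
On both strands, the NF-kB motif was found in 3 of the 73 member windows (4.11%) and in 3.90% of all windows, and the AP-1 motif in 3 (4.11%) and 6.75%. The GAS motif (TTCNNNGAA) was found in 1 member window (1.37%, against 7.02% of all), the CRE motif (TGACGTCA) in 1 (1.37%, against 1.55%) and the E-box (CACGTG) in 4 (5.48%, against 6.02%). These letters are a description of the windows and no evidence that a factor binds. Median GC content was 64.4% in the member windows and 52.4% in all windows, and the motif shares were not adjusted for it.

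The first question was how the guidance genes differ between the spinal cords of recipients and those of naive mice. In wild-type Th17 recipients, 10 of the 69 members were called higher and 30 lower than in naive mice, against 18% higher and 25.5% lower of all genes (43.5% called in all). In wild-type Th1 recipients, 9 were called higher and 34 lower, against 16.7% and 24.1% of all genes (40.8% called in all). Without overlap between the groups, 7 members were higher and 24 lower in Th17 recipients (15% and 20% of all genes, 35% in all), and 6 higher and 31 lower in Th1 recipients (14.1% and 19.5%, 33.6% in all). The median log2 difference was -0.15 in Th17 and -0.32 in Th1 recipients over the members, and -0.05 and -0.06 over all genes. Of the 32 members with a naive wild-type mean of at least 5, 22 (68.8%) were lower and 6 higher in Th17 recipients, against 44.1% and 18.5% of all genes that bright. This filter uses the level of the naive mice, which favours genes that fell, among the members and among all genes alike. The genes that rose were plexins, neuropilins and class 4 semaphorins, besides Epha2 in Th17 recipients, and calls in the other families were all of lower expression. Th17 and Th1 recipients were set against the same naive mice, so their differences are given side by side and not as independent results.

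The direction of the smaller increases depended on how the arrays were scaled. When the arrays were centred on 67 ribosomal protein genes, the median difference of all genes moved by -0.44 in Th17 and by -0.50 in Th1 recipients. This shift is the mean rise of the ribosomal protein genes themselves in recipients, which the centring takes off every gene. They are therefore no neutral reference, and which scaling is nearer the truth was not tested. With this scaling, 5 members were called higher and 57 lower in Th17 recipients (9.69% and 78.3% of all genes), and 4 higher and 60 lower in Th1 recipients (8.39% and 81.5%). Plxnd1, Sema4d, Plxnb2, Sema4a and Nrp2 remained higher in Th17 recipients, with 3.17, 1.81, 1.05, 0.80 and 0.30. All but Nrp2 (0.14, adjusted p = 0.3) remained higher in Th1 recipients. Nrp1 (0.02) and Plxna1 (0.13) were no longer called in Th17 recipients, and Plxnc1 (-0.14), Sema4b (-0.17) and Epha2 (-0.14) changed sign. In Th1 recipients, Nrp1 (0.06) and Plxna1 (0.17) were no longer called, Sema4b changed sign (-0.22), and Plxnc1 was called lower in place of higher (-0.27, adjusted p = 0.0191).

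Markers of other cell types moved in the same comparison. All 10 monocyte and macrophage markers measured were called higher in Th17 recipients, with a median difference of 4.66. Their summed level, as log2 of the summed linear values, lay between 7.57 and 7.64 in naive wild-type mice, 11.62 and 11.95 in Th1 recipients, and 11.60 and 12.07 in Th17 recipients. Ccr2, Fcgr1 and Msr1 were near background in naive mice, and no marker of the list was in recipients. Of 12 neuronal markers, 11 were called lower (median -0.77), as were 8 of 9 oligodendrocyte markers (-0.70) and 4 of 5 motor neuron markers (-0.73). All 8 T cell markers were called higher (median 2.72), with a summed level between 5.897 and 6.002 in naive wild-type mice, 8.68 and 8.95 in Th1 recipients, and 8.93 and 9.24 in Th17 recipients, and all 8 were near background in naive mice. Of 10 endothelial markers, 5 were called higher and 2 lower, and their summed level lay between 9.39 and 9.65 in naive wild-type mice, 10.92 and 11.42 in Th1 recipients, and 11.13 and 11.56 in Th17 recipients. Of 6 neutrophil markers, 5 were called higher in Th17 and 3 in Th1 recipients, and of 6 meningeal fibroblast markers 4 and 3. Of 6 markers of oligodendrocyte precursors, 5 were called lower in both, with a summed level between 11.42 and 11.72 in naive mice, 10.62 and 10.95 in Th1 recipients, and 10.83 and 11.18 in Th17 recipients. Astrocyte markers (4 higher and 3 lower of 8) and homeostatic microglia markers (3 and 3 of 6) were divided in Th17 recipients, and none of 4 B cell markers was called. The summed level of the neuronal markers lay between 13.56 and 13.63 in naive wild-type mice, 12.89 and 13.02 in Th1 recipients, and 12.77 and 12.94 in Th17 recipients, and that of the oligodendrocyte markers between 14.17 and 14.34, 13.48 and 13.73, and 13.57 and 13.76. Markers of spinal cord tissue were thus present in every array. In whole spinal cord, fewer cells of a type and less RNA per cell cannot be told apart, and the part of these cell types in the changes of guidance genes was not tested.

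**Figure D1:**
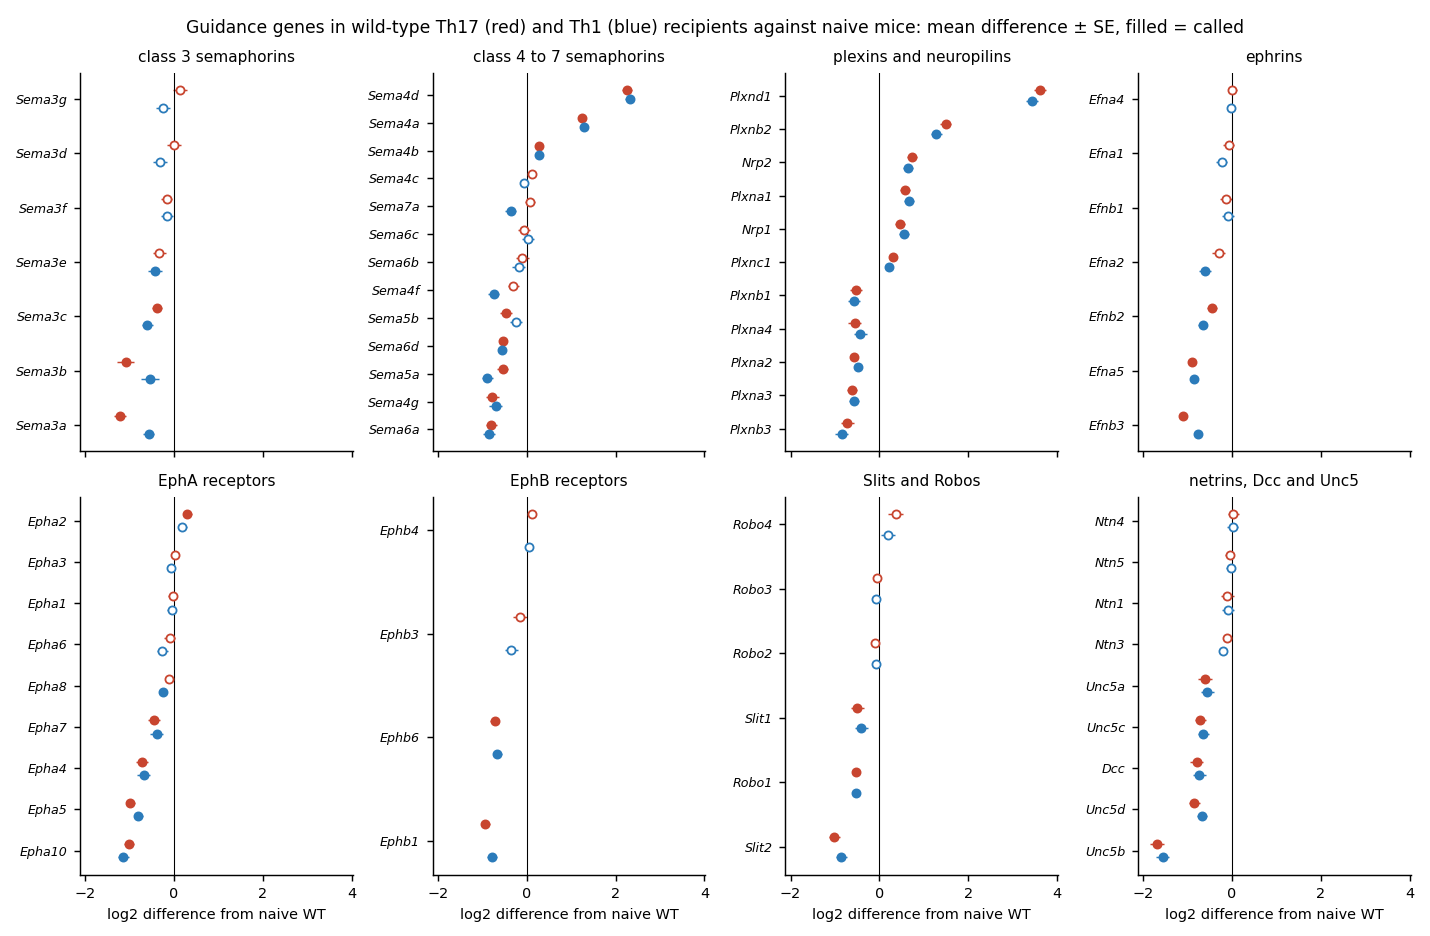
Log2 difference from naive wild-type mice (x axis) of each of the 66 guidance genes (y axis), in 8 families, for wild-type Th17 recipients (red) and Th1 recipients (blue); bars are the SE of the limma fit with 5 mice per group, and filled points are called at an adjusted p under 0.05. The increases lie among the plexins, neuropilins and class 4 semaphorins, with Plxnd1 at 3.61 and 3.43, and the largest decrease is that of Unc5b at -1.69 and -1.56.

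Plexins are the signalling receptors of semaphorins and neuropilins are their co-receptors. All 11 were called in both comparisons, 6 higher and 5 lower. With ribosomal centring, 3 of the 6 were still called higher in Th17 recipients and 2 in Th1 recipients, as given above. Plxnd1, the receptor of Sema3e in vessels and immune cells, showed the largest increase of all members. Its log2 level was 2.907, 3.381, 3.402, 3.228 and 2.893 in the naive wild-type mice, under the array medians. It was 6.639, 6.926, 6.400, 6.679 and 6.325 in the Th1 recipients and 6.786, 6.827, 7.045, 6.927 and 6.279 in the Th17 recipients. Every recipient thus lay above every naive mouse, and the increase was 3.61 ± 0.13 in Th17 recipients (SE, limma, adjusted p = 1.99e-18), or 12.2-fold, and 3.43 ± 0.13 in Th1 recipients (adjusted p = 6.71e-18). Within the 4 plate rows (read from a position code in the sample titles) that hold both naive and Th17 mice, its difference ranged from 3.05 to 4.14.

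Plxnb2, a receptor of class 4 semaphorins, was measured well above background in all groups. Its level was 6.225, 6.545, 6.220, 5.927 and 6.041 in naive wild-type mice, 7.354, 7.504, 7.329, 7.626 and 7.548 in Th1 recipients, and 7.704, 7.615, 7.786, 7.862 and 7.458 in Th17 recipients. The groups did not overlap with the naive mice, and it rose by 1.49 ± 0.12 in Th17 recipients (2.82-fold, adjusted p = 6.96e-11) and by 1.28 ± 0.12 in Th1 recipients (adjusted p = 1.67e-09). Nrp2, the neuropilin that also binds VEGF-C, rose from between 5.32 and 5.57 to between 5.99 and 6.39 in Th17 recipients (0.74 ± 0.12, adjusted p = 7e-06) and to between 5.96 and 6.25 in Th1 recipients (0.64 ± 0.12). Plxna1, which forms receptor complexes with neuropilins, rose by 0.57 and 0.66, and its neuropilin partner Nrp1 by 0.46 and 0.56, with recipients and naive mice overlapping in Nrp1 but not in Plxna1. Plxnc1, the plexin that binds Sema7a, stayed under the array medians in all groups, and its differences of 0.30 and 0.22 turned to lower expression with ribosomal centring.

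The other plexins fell. Plxnb3 fell by 0.72 ± 0.14 in Th17 and by 0.85 in Th1 recipients, Plxna3 by 0.62 and 0.56, Plxna2 by 0.58 and 0.47, Plxna4 by 0.56 and 0.43, and Plxnb1, the high-affinity receptor of Sema4d, by 0.53 and 0.57. None of the 5 overlapped between naive mice and Th17 recipients. The A- and B-type plexins therefore held members of either direction, with Plxna1 and Plxnb2 higher and Plxna2, Plxna3, Plxna4, Plxnb1 and Plxnb3 lower in the same arrays.

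Among the 13 membrane-bound semaphorins of classes 4 to 7, 3 were called higher and 5 lower in Th17 recipients, and 3 higher and 6 lower in Th1 recipients. Sema4d (CD100), found on T cells and also on oligodendrocytes, lay at 6.354, 6.104, 5.931, 6.303 and 6.256 in naive wild-type mice. Its level was 8.5, 8.337, 8.365, 8.546 and 8.772 in Th1 recipients and 8.553, 8.326, 8.718, 8.408 and 8.206 in Th17 recipients, so that all recipients lay above all naive mice. It rose by 2.25 ± 0.11 in Th17 (4.77-fold, adjusted p = 2.35e-15) and by 2.31 ± 0.11 in Th1 recipients (adjusted p = 1.34e-15). Sema4a, found on dendritic cells and T cells, rose from between 5.55 and 6.05 to between 7.03 and 7.32 in Th17 (1.24 ± 0.10, adjusted p = 2.6e-11) and to between 7.09 and 7.35 in Th1 recipients (1.29 ± 0.10). Sema4b showed smaller differences of 0.27 and 0.28. Its call in Th17 recipients was lost without naive mouse 1, naive mouse 2 or Th17 recipient 5 (highest adjusted p 0.0611), and that in Th1 recipients without naive mouse 1 or Th1 recipient 2 (highest adjusted p 0.0586).

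The class 4 to 7 semaphorins that fell in Th17 recipients were Sema6a (-0.80 ± 0.13, adjusted p = 1.49e-05), Sema4g (-0.78), Sema5a (-0.54), Sema6d (-0.52) and Sema5b (-0.46). Sema6a, a ligand of A-type plexins, fell from between 4.45 and 5.202 to between 4.01 and 4.19. In Th1 recipients, Sema5a (-0.88), Sema6a (-0.84), Sema4f (-0.75), Sema4g (-0.70), Sema6d (-0.55) and Sema7a (-0.36) were called lower. Sema4f, at -0.30 in Th17 recipients, and Sema5b, at -0.25 in Th1 recipients, did not pass the test there, and neither differed between Th17 and Th1 recipients past the threshold. Sema4c, Sema6b and Sema6c were not called in either comparison, with differences between -0.18 and 0.12.

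The secreted class 3 semaphorins are mostly repellents. Of 7 measured, none was called higher, 3 were called lower in Th17 recipients and 4 in Th1 recipients. Sema3a, the repellent that collapses growth cones through Nrp1 and plexin A, lay at 6.899, 6.694, 6.496, 6.776 and 6.661 in naive wild-type mice and at 5.604, 5.849, 5.428, 4.977 and 5.559 in Th17 recipients. No Th17 recipient reached the lowest naive mouse, and the difference was -1.22 ± 0.13 (2.33-fold lower, adjusted p = 1.73e-08). The median over its 3 probe sets, of which the other two were dim, gave -0.42 (adjusted p = 0.00204), and -0.23 (adjusted p = 0.102) in Th1 recipients, where the call was lost. Sema3b fell by 1.09 ± 0.20 in Th17 recipients (adjusted p = 4.06e-05), from between 4.71 and 5.17 to between 3.76 and 4.09, and Sema3c by 0.39 ± 0.12. In Th1 recipients, Sema3c fell by 0.60, Sema3a by 0.57, Sema3b by 0.54 and Sema3e by 0.43. The Sema3b call in Th1 recipients was lost when any of naive mice 2 and 3 and Th1 recipients 2 and 3 was left out (highest adjusted p 0.0639). Sema3d, Sema3f and Sema3g were not called, with differences between -0.32 and 0.14.

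**Figure D2:**
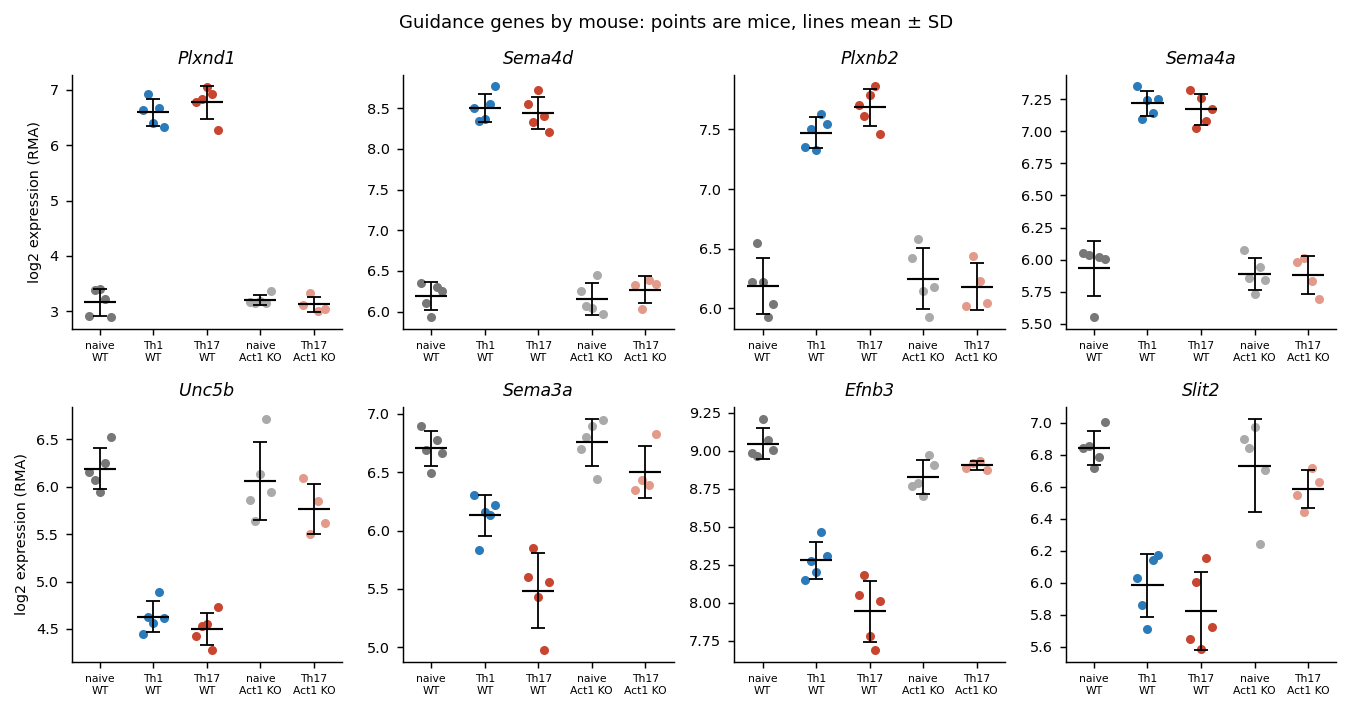
Log2 expression (y axis, RMA values, scale differing between panels) of 4 guidance genes that rose and 4 that fell, in each mouse (points) of the 5 groups (x axis), with the group mean and SD as lines; n = 5 per group and 4 for Th17 recipients labelled Act1 KO. Wild-type Th1 and Th17 recipients stand apart from naive mice in all 8 genes, and recipients labelled Act1 KO lie at the level of naive mice.

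Ephrins and Eph receptors act between touching cells, A-type ephrins through a lipid anchor and B-type ephrins as transmembrane proteins. Of 7 ephrins, 3 were called lower in Th17 recipients and 4 in Th1 recipients, and none higher. Efnb3, the spinal midline repellent that keeps corticospinal axons on their side through Epha4, lay at 8.984, 8.965, 9.210, 9.073 and 9.008 in naive wild-type mice. It lay at 8.147, 8.273, 8.203, 8.467 and 8.308 in Th1 recipients and at 8.052, 8.183, 7.783, 7.689 and 8.009 in Th17 recipients. All recipients lay below all naive mice, and Efnb3 fell by 1.10 ± 0.09 in Th17 (2.15-fold, adjusted p = 3.94e-11) and by 0.77 ± 0.09 in Th1 recipients (adjusted p = 4.55e-08). Efna5 fell by 0.90 ± 0.09 and 0.85 ± 0.09, and Efnb2, which also marks arteries, by 0.44 and 0.66. Efna2 was lower in Th1 recipients (-0.61) and at -0.30 in Th17 recipients, where it was not called. Efna1, Efna4 and Efnb1 were not called, and their naive means lay near or under the array medians.

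Of 9 EphA receptors, 4 were called lower and 1 higher in Th17 recipients, and 5 lower in Th1 recipients. Epha10, a receptor without kinase activity, fell from between 6.37 and 6.46 in naive wild-type mice to between 5.18 and 5.55 in Th17 (-1.01 ± 0.11, adjusted p = 3.47e-08) and to between 4.81 and 5.66 in Th1 recipients (-1.14 ± 0.11). Epha5, a receptor of A-type ephrins, fell by 0.98 and 0.80, Epha4 by 0.73 and 0.68, and Epha7 by 0.45 and 0.40. Epha8, under the array medians, was called lower in Th1 recipients (-0.25). Epha2, also under the array medians, was higher in Th17 recipients by 0.30 ± 0.10, a call lost without naive mouse 3 or without Th17 recipient 5 (highest adjusted p 0.0682). Epha1, Epha3 and Epha6 lay under the array medians in naive wild-type mice and were not called in either comparison. Of 4 EphB receptors, Ephb1 fell by 0.93 ± 0.11 and 0.78 ± 0.11, and Ephb6, another receptor without kinase activity, by 0.73 and 0.66. Ephb3 and Ephb4 were not called.

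Slits repel axons through Robo receptors at the midline. Slit2 lay at 6.840, 6.854, 6.718, 6.784 and 7.001 in naive wild-type mice, at 6.032, 5.863, 5.709, 6.143 and 6.171 in Th1 recipients and at 5.649, 6.007, 5.589, 6.156 and 5.725 in Th17 recipients. No recipient reached the naive mice, and Slit2 fell by 1.01 ± 0.12 in Th17 (2.02-fold, adjusted p = 1.59e-07) and by 0.86 ± 0.12 in Th1 recipients. Robo1, its receptor, fell by 0.53 ± 0.09 in both, to levels between 3.17 and 3.40 that are at background. Slit1 fell by 0.50 and 0.40, and its call in Th1 recipients was lost when any of naive mice 2 and 3 and Th1 recipients 1 and 4 was left out (highest adjusted p 0.0881). Robo2, Robo3 and Robo4, an endothelial receptor, lay under the array medians in naive mice and were not called.

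The netrin receptors fell as a group while the netrins were not called. Unc5b, a repulsive netrin receptor on neurons and vessels, showed the largest decrease of all members. Its level was 6.156, 6.071, 5.949, 6.245 and 6.527 in naive wild-type mice, 4.442, 4.628, 4.567, 4.886 and 4.617 in Th1 recipients, and 4.426, 4.527, 4.553, 4.278 and 4.733 in Th17 recipients. No recipient reached the naive mice, and Unc5b fell by 1.69 ± 0.15 in Th17 (3.22-fold, adjusted p = 5.98e-10) and by 1.56 ± 0.15 in Th1 recipients (adjusted p = 3.01e-09). Within the 4 plate rows with mice of both kinds, its difference in Th17 recipients ranged from -2.0 to -1.51. Unc5d fell by 0.85 ± 0.12 and 0.68, Dcc, the attractive receptor, by 0.80 ± 0.15 and 0.74, Unc5c by 0.72 and 0.65, and Unc5a by 0.61 and 0.56. All 5 receptors were thus called lower in both comparisons. Ntn1 stood at -0.10 ± 0.14 in both, and Ntn3, Ntn4 and Ntn5 lay under the array medians in naive mice. Over all members, 33 receptors had a median difference of -0.45 in Th17 recipients (7 higher, 17 lower) and 33 ligands one of -0.17 (3 higher, 13 lower).

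Where a called member has further probe sets with its symbol alone, these mostly moved the same way. Of 44 such probe sets, 41 had the sign of the one used, 28 of them were called, and none was called in the opposite direction in Th17 recipients.

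The study asked which genes respond to Th17 cells in particular, so Th17 recipients were set against Th1 recipients. Of the members, 1 was called higher and 2 lower in Th17 recipients, against 1.91% and 1.09% of all genes (3% called in all), and 9 members had an unadjusted p under 0.05. All 3 were ligands, and none of the 33 receptors was called, with receptor differences between -0.18 and 0.21. Sema3a lay at 6.308, 5.835, 6.163, 6.131 and 6.215 in Th1 recipients, between naive mice and Th17 recipients. The highest Th17 recipient (5.849) slightly exceeded the lowest Th1 recipient, and the difference was -0.65 ± 0.13 (1.57-fold, adjusted p = 0.00406). Without Th1 recipients 4 and 5 it was -0.62 (adjusted p = 0.0397), and within the 3 plate rows with mice of both kinds it ranged from -0.79 to -0.46. The other probe sets of Sema3a differed less, and the median over all of them gave -0.20 (adjusted p = 0.515). The methods' t-test (adjusted p = 0.196) and the exact Mann-Whitney test (adjusted p = 0.309) did not call it either.

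Efnb3 was lower in Th17 than in Th1 recipients by 0.34 ± 0.09 (adjusted p = 0.0277), and the groups overlapped. Sema7a, a lipid-anchored semaphorin that binds beta-1 integrins and Plxnc1, lay at 7.092, 6.992, 6.708, 6.464 and 6.905 in Th1 recipients, at 7.243, 6.999, 7.252, 7.289 and 7.563 in Th17 recipients and between 7.10 and 7.24 in naive wild-type mice. It was higher in Th17 than in Th1 recipients by 0.44 ± 0.12 (adjusted p = 0.0405), with overlapping groups, and Th17 recipients differed from naive mice by 0.07 (adjusted p = 0.675). Without Th1 recipients 4 and 5, neither Efnb3 (-0.26, adjusted p = 0.274) nor Sema7a (0.34, adjusted p = 0.290) was called, and both calls were also lost with the plate row as a block (adjusted p = 0.228 and 0.178). Leaving out Th1 recipient 4, Th1 recipient 5, Th17 recipient 3 or Th17 recipient 4 left Sema3a as the 1 member called. Of the members, 1 was higher and 1 lower without overlap between the recipients (1.93% and 1.36% of all genes, 3.29% in all). These were Sema5a (0.34 ± 0.13, adjusted p = 0.227) and Sema3b, at 4.325 to 4.634 in Th1 and 3.761 to 4.091 in Th17 recipients (-0.55 ± 0.20, adjusted p = 0.169), and neither was called. Sema3b was called with the plate row as a block (-0.50, adjusted p = 0.0442), when these 2 groups were fitted alone and by the methods' t-test after adjustment. Higher in Th17 recipients were also 3 of 6 meningeal fibroblast markers (summed level 9.45 to 9.92, against 8.15 to 9.26 in Th1 recipients). So were 5 of 6 neutrophil markers (9.25 to 10.38, against 6.56 to 8.22). Of 10 monocyte and macrophage markers, 5 were higher, but the summed levels overlapped (11.60 to 12.07, against 11.62 to 11.95). The summed level of 4 dendritic cell markers was lower in Th17 recipients (6.50 to 6.92, against 7.33 to 8.18). That of 6 homeostatic microglia markers overlapped (9.69 to 9.87, against 9.84 to 10.26). The part of these cell types in the differences between recipients was not tested.

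**Figure D3:**
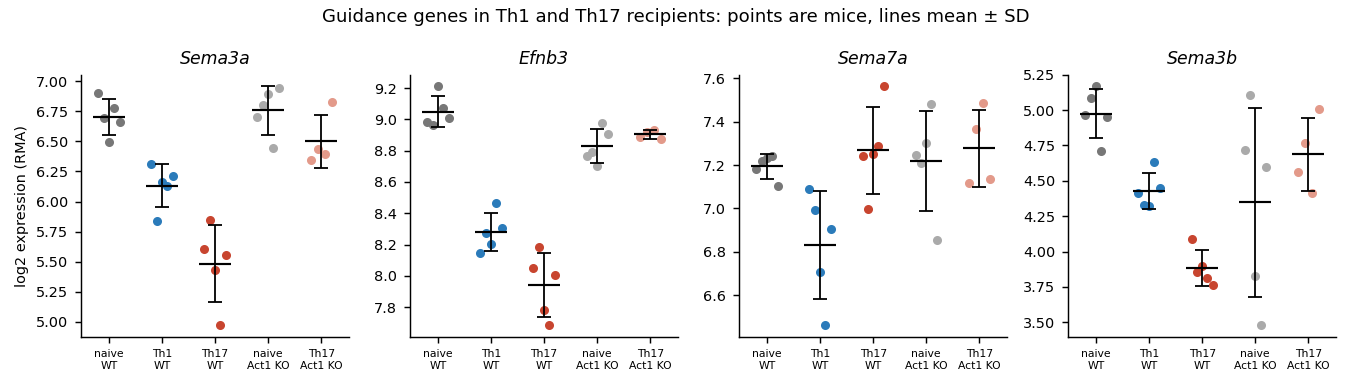
Log2 expression (y axis, RMA values, scale differing between panels) of the 3 guidance ligands called between Th17 and Th1 recipients and of Sema3b, which was not called, in each mouse (points) of the 5 groups (x axis), with mean and SD as lines. Sema3a in Th1 recipients lies between naive mice and Th17 recipients, and Sema7a in Th17 recipients overlaps with the naive groups.

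The last question was whether the response to Th17 cells depends on Act1. Between Th17 recipients and naive mice labelled Act1 KO, limma called none of the 69 members and none of all 17097 genes (0%), with 7 members and 1070 genes at an unadjusted p under 0.05. The methods' t-test and the exact Mann-Whitney test also called none after adjustment. Each had 2 members at an unadjusted p under 0.05, beside 707 and 521 of all genes. No member was without overlap between the groups, against 1.5% of all genes (0.813% higher, 0.684% lower). The differences of the members lay between -0.46 (Plxna4, adjusted p = 0.494) and 0.34 (Sema3b). In Th17 recipients labelled Act1 KO, Plxnd1 lay at 3.114, 3.324, 3.010 and 3.042, Sema4d at 6.330, 6.027, 6.385 and 6.335, and Unc5b at 6.089, 5.501, 5.849 and 5.613. Plxnd1 and Sema4d were within the range of naive mice labelled Act1 KO or below it, and Unc5b overlapped with them.

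Set against wild-type Th17 recipients, 29 members were higher and 11 lower in Th17 recipients labelled Act1 KO (24.6% and 17.6% of all genes, 42.2% in all), and 24 and 10 without overlap (19.2% and 15.1%, 34.3% in all). The 8 with the smallest adjusted p were Plxnd1 (-3.65 ± 0.14), Sema4d (-2.17 ± 0.12), Sema4a (-1.29 ± 0.10), Plxnb2 (-1.50 ± 0.13), Efnb3 (0.96 ± 0.09), Epha10 (1.14 ± 0.12), Efna5 (0.82 ± 0.10) and Nrp2 (-1.01 ± 0.12). The difference of the Th17 response between the genotypes was called for 32 members, 23 higher and 9 lower in the mice labelled Act1 KO (18.2% and 13.8% of all genes, 32% in all). It was -3.69 ± 0.19 for Plxnd1 (adjusted p = 1.05e-14), -2.14 ± 0.16 for Sema4d, -1.56 ± 0.18 for Plxnb2, 1.39 ± 0.22 for Unc5b and 1.18 ± 0.13 for Efnb3. Sema7a was among those not called (-0.02 ± 0.17).

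The cell type markers followed the same division. The summed level of the 10 monocyte and macrophage markers lay between 7.56 and 7.78 in Th17 recipients labelled Act1 KO and between 7.58 and 7.70 in naive mice labelled Act1 KO, with Ccr2, Fcgr1 and Msr1 near background in both and Lyz2 in the recipients. That of the 8 T cell markers lay between 6.02 and 6.20 in these recipients, between 5.89 and 6.12 in the naive mice and between 8.93 and 9.24 in wild-type Th17 recipients, and that of the neuronal markers between 13.50 and 13.61 and between 13.46 and 13.71 in the first 2 groups. The labels give no disease score for single mice, and whether the recipients labelled Act1 KO fell ill was not tested. Between naive mice of the 2 labelled genotypes limma called no member, against 0.585% of all genes (0.164% higher and 0.421% lower). At an unadjusted p under 0.05 in limma were 7 members, beside 1250 of all genes. Without overlap, 1 member was higher and 1 lower (0.725% and 1.04% of all genes, 1.76% in all). Of the members, Sema5a had the smallest p, higher by 0.49 ± 0.13 in mice labelled Act1 KO (adjusted p = 0.126).

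**Figure D4:**
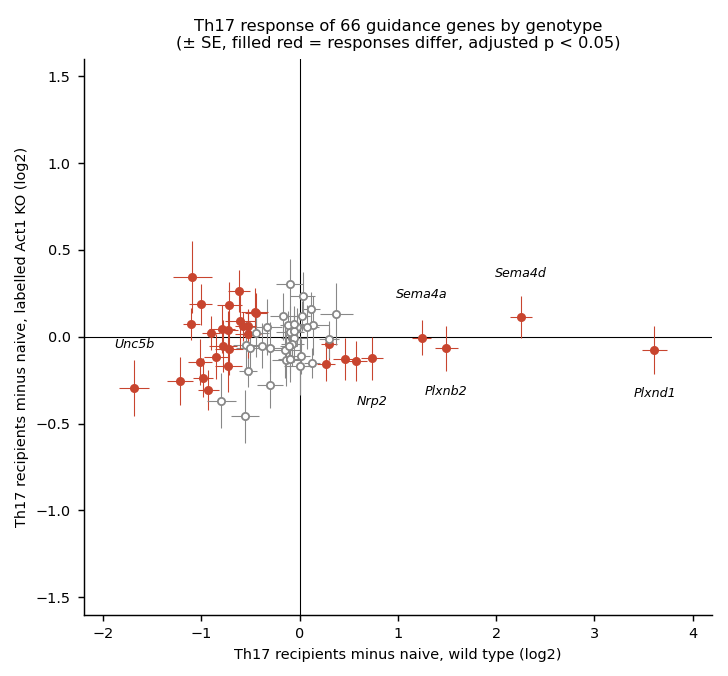
Log2 difference between Th17 recipients and naive mice in wild-type mice (x axis) and in mice labelled Act1 KO (y axis) for each of the 66 guidance genes (points), with SE bars of the limma fit; filled red points are genes whose responses differ at an adjusted p under 0.05. The wild-type differences run from -1.69 to 3.61 and those in mice labelled Act1 KO from -0.46 to 0.34.

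Genes around the guidance receptors were described from lists of their pathway. Beside the counts of these lists, 18% of all genes were called higher and 25.5% lower in Th17 recipients against naive wild-type mice. Of 10 receptors that bind semaphorins but are no plexins, or that signal beside them, 8 were called higher in Th17 recipients and none lower, among them the leukocyte phosphatase Ptprc (5.03 ± 0.18), the adaptor Tyrobp (4.17 ± 0.12), its partner Trem2 (2.91 ± 0.14) and Cd72 (2.62 ± 0.17), the lymphocyte receptor of Sema4d. These are genes of leukocytes and microglia, and Cd72 was at background in naive mice (mean 3.04). When probe sets that can match several transcripts were left out, the remaining probe set of Trem2 gave -0.05 (adjusted p = 0.739). Cd72 was higher in Th17 than in Th1 recipients by 0.90 ± 0.17 (adjusted p = 0.00181), and Trem2 was lower by 0.71 ± 0.14 (adjusted p = 0.0037).

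Of 50 effectors that carry guidance signals to the cytoskeleton, 11 were called higher and 24 lower in Th17 recipients. Those with the smallest adjusted p all rose, namely Rac2, a GTPase of blood cells (4.71 ± 0.19), Fes, a kinase downstream of plexins (2.96 ± 0.10), Vasp, which promotes actin filament growth (2.84 ± 0.11), and Mical1, an oxidase that disassembles actin filaments (1.57). Rac2 and Fes were near background in naive mice (means 3.41 and 3.13), so that their differences can understate the change. Of 23 other guidance cues and receptors, 2 were called higher and 9 lower. Cxcl12, the chemokine that guides neurons and leukocytes through Cxcr4, rose by 3.70 ± 0.11 in Th17 and by 2.36 ± 0.11 in Th1 recipients, a difference of 1.34 ± 0.11 between the recipients (adjusted p = 6.24e-09). Flrt1, an adhesion protein that binds Unc5 receptors, fell by 1.21 and 1.26, Dscam, a netrin receptor, by 0.80 and 0.69, and Nell2, a ligand of Robo3, by 0.70 and 0.61.

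Of 19 inhibitors of axon growth and their receptors, 3 were called higher and 10 lower in Th17 recipients. Pirb, a receptor of myelin inhibitors that is also found on myeloid cells, rose by 4.57 ± 0.12 from a naive mean of 2.86, which is at background. Tnc, the matrix protein tenascin C, rose by 3.31 ± 0.17 in Th17 and by 1.86 ± 0.17 in Th1 recipients, and was higher in Th17 than in Th1 recipients by 1.45 ± 0.17 (adjusted p = 5.58e-06). Bcan, the chondroitin sulphate proteoglycan brevican, fell by 2.81 ± 0.18 in Th17 and by 1.79 in Th1 recipients, and Omg, a myelin inhibitor, by 1.03 and 0.62. Of 10 genes listed with neuropilin and VEGF signalling outside the members, none was called higher and 2 lower in Th17 recipients. The shares over all genes were 18% and 25.5%. These were Plxdc1 (-0.72 ± 0.12) and Vegfb (-0.52 ± 0.09). Plxdc1, named for its plexin domain, was on the list without being a neuropilin or VEGF gene.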

How the data were processed

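RNA of 24 spinal cord samples was hybridized to Affymetrix GeneChip HT-MG-430PM-96 arrays, 1 array per sample. The authors deposited a table of log2 values for 45118 probe sets, made by RMA per the labels, with no version given. RMA brings arrays to a common distribution, so a shift of all genes would not be visible. No detection call or depth comes with the values, so precision rests on the number of arrays. Arrays of a group correlated with r from 0.986 to 0.997, and no pair was identical (smallest mean absolute difference 0.143).

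From these values, 28898 probe sets with 1 symbol were kept (551 with several and 15669 not listed were left out), which gave 17097 genes. The linear model was that of limma 3.58.1 under R 4.3.3 (lmFit and eBayes, all 24 arrays, two-sided, Benjamini-Hochberg over all genes), and the script was tested on simulated data. Groups came from the sample labels. The methods name as many mice per group as the labels number samples, and each sample is called a mouse here. They do not state that every array is a separate mouse, and they also speak of a smaller number of independent replicates, so p-values measure only the spread between these samples, which may be technical in part. Promoter windows were searched and figures drawn with Python 3.11.15 and matplotlib 3.10.9.

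The members and gene lists were chosen with earlier results of these data known. Named members are, in each family, up to 3 with the largest increase and 3 with the largest decrease among called members, in each other comparison the 8 with the smallest adjusted p, and from each pathway list up to 4 with the smallest adjusted p. Every other member is given once with its family. Alternatives covered the probe set rule, a filter on dim genes, array scaling, variance model, array weights, the groups fitted together, replicate number, plate row and plate column as blocks, arrays left out, the methods' t-test and an exact Mann-Whitney test.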

Additional observations from a re-analysis of the deposited data

Results flagged for a closer look

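In 16 of 260 groups of 4 or 5 mice, over the genes named above, 1 mouse lay apart from the rest of its group by Dixon's criterion, where chance gives about 1 in 20. Among the members these were Efna5 in naive wild-type mouse 3 (6.629, others from 6.901), Sema4a in the same mouse (5.551, others from 6.002), Plxna1 in Th17 recipient 4 (6.401, others up to 6.215), Sema4g in Th17 recipient 2 (5.862, others up to 5.445), Plxnb1 in Th1 recipient 4 (5.886, others up to 5.460) and Sema3c in Th1 recipient 3 (6.252, others from 6.672). In mice labelled Act1 KO they were Plxnd1 in naive mouse 5 (3.368, others up to 3.182), Unc5d in naive mouse 2 (4.926, others from 5.446) and Sema4d in Th17 recipient 2 (6.027, others from 6.330). Among the other named genes they were Ptprc (3.878) and Tnc (3.050) in naive wild-type mouse 4, Omg in Th17 recipient 3 (8.584), Cd72 in Th1 recipient 1 (5.517) and, labelled Act1 KO, in naive mouse 4 (2.669), and, also labelled Act1 KO, Flrt1 in Th17 recipient 1 (6.067) and Rac2 in Th17 recipient 2 (3.850).

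The Th17 response differed between the labelled genotypes in the limma interaction for Plxnd1 (-3.69), Sema4d (-2.14), Plxnb2 (-1.56), Sema4a (-1.25), Unc5b (1.39), Epha10 (1.195), Efnb3 (1.18) and Efna5 (0.92), each the difference in mice labelled Act1 KO minus that in wild-type mice, with 4 against 5 and 5 against 5 mice. In all 8 the wild-type difference was the larger one.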

How the results depend on the processing

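Calls in Th17 and Th1 recipients against naive mice changed mainly with the scaling and the threshold. Centring on ribosomal protein genes gave 5 higher and 57 lower members in Th17 recipients, 4 and 60 in Th1 recipients, and 50 members whose response differed between genotypes, and it reversed Epha2 (-0.14), Sema4b (-0.17) and Plxnc1 (-0.14) in Th17 and Sema4b (-0.22) and Plxnc1 (-0.27) in Th1 recipients. Without probe sets that can match several transcripts, Trem2 reversed (-0.052). Requiring a 2-fold change left 4 higher and 6 lower in Th17, 4 and 2 in Th1 recipients, 0 between Th17 and Th1 recipients, 8 between Th17 recipients of the labelled genotypes and 8 in the difference of responses. Of the 3 members called between Th17 and Th1 recipients, 1 was kept with the median over probe sets (Efnb3) and 1 without Th1 recipients 4 and 5 (Sema3a). The methods' t-test after adjustment kept 0 of them and called 1 other (Sema3b), and the exact Mann-Whitney test called 0. Array weights called 1 member (Sema5a) between naive genotypes. With single mice left out, counts ranged from 8 to 11 higher and 30 to 32 lower in Th17, 8 to 9 and 31 to 34 in Th1 recipients, 1 to 4 between recipients, 0 to 1 between naive genotypes, 37 to 39 between Th17 recipients of the labelled genotypes, and 30 to 35 in the difference of responses. The plate row as a block called 24 in the last, 22 of them among the 32. Causes were not tested. Replicate numbers were not treated as pairs in the main fit. The 46 same-number pairs had r from -0.29 to 0.44, with 16 over 0.1. Their median was 0.04, against 0.01 for different numbers. Of 24 arrays, 10 were closest to their own number, and no chance level was computed, so pairing was not settled. The replicate block gave 10 higher and 31 lower in Th17, 9 and 37 in Th1 recipients, 3 between recipients, 0 in mice labelled Act1 KO, 41 between Th17 recipients of the labelled genotypes and 34 in the difference of responses. The number of arrays and levels near background limit what could be called.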
